A study of Mus musculus with 9 samples.

Results

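Induced pluripotent stem cells made from fetal fibroblasts (fiPSC) were set against spermatogonial stem cells selected for the surface receptor Gfra1 (SSC), 3 libraries in each group, out of 9 libraries in the series. The 3 libraries of SSC-derived iPSC entered the choice of the locus for each gene and an alternative fit. The deposited table gives 1 FPKM value (fragments per kilobase of transcript, scaled to sequencing depth) for each locus and library, and 54913 of its 54914 loci were used. Loci were named by their coordinates against GRCm38 genes rather than by the printed names, and each gene was taken from the locus with the highest mean over the 9 libraries, which gave 12736 genes with a locus. Of these, 11016 reached 1 FPKM in at least 3 of the 6 libraries and were tested, and the other 1720 were not.

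All animals carried the same 2 alleles, Gt(ROSA)26Sortm1(rtTA*M2)Jae and Col1a1tm3(tetO-Pou5f1,-Sox2,-Klf4,-Myc)Jae, so that doxycycline switches on the reprogramming factors Pou5f1, Sox2, Klf4 and Myc, and the SSC carried them too. SSC came from testes of postnatal day 6 mice, were enriched by differential plating and with magnetic beads for Gfra1, and were taken at passage 0. The fiPSC were lines grown from picked colonies of reprogrammed fetal fibroblasts, kept with LIF and doxycycline per the labels at passages 10 to 11. The study's methods instead describe a stepwise withdrawal of doxycycline and later passages, with selection for the surface marker SSEA1 to remove feeder cells before RNA extraction. The study calls the sequenced samples biological ones, but no label or method names the animal or line behind each library, so the p-values measure the spread between these libraries. Reads of the induced transgenes and of the endogenous Pou5f1, Sox2, Klf4 and Myc genes cannot be told apart in these values.

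Pluripotent cells hold their state through a circuit of transcription factors around Pou5f1, Sox2 and Nanog, which activate each other and many shared targets, and mouse cells of this state depend on LIF signalling through Stat3. Spermatogonial stem cells are the self-renewing germ cells of the testis. These cells depend on Gdnf, a growth factor secreted by the neighbouring Sertoli cells and received by Gfra1 together with the kinase Ret, and they protect their genome from transposons through piRNA, small RNAs bound by Piwi proteins. The comparison asks which functions separate pluripotent cells from the germline stem cell fraction. The 2 groups share no lineage of origin, so a change here is not a step of reprogramming.

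The SSC libraries were much shallower. From the smallest steps between low FPKM values, SSC replicates 1, 2 and 3 held about 1770000, 4630000 and 1390000 fragments, and fiPSC held 13300000, 17600000 and 15500000 fragments. A single fragment on 1 kilobase was therefore worth 0.565, 0.216 and 0.722 FPKM in SSC, and at most 0.0753 FPKM in fiPSC. A value of 0 in SSC is thus weaker evidence of absence than a value of 0 in fiPSC, and 29.98%, 18.9% and 35.4% of the loci were at 0 in SSC replicates 1, 2 and 3 against 9.64% to 10.4% in fiPSC. Spearman correlations between replicates across loci were lower among SSC, from 0.727 to 0.791, than among fiPSC, where they ran from 0.936 to 0.941. These correlations include loci at 0, and the part of sequencing depth in them was not tested. Below, 3 values in a row stand for replicates 1, 2 and 3.

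The SSC libraries held the receptor used to select them and a marker of germ cells. Gfra1, the Gdnf receptor used for the selection, stood at 37.7, 34.1 and 23.9 FPKM in SSC and at 0.0185, 0.121 and 0.0956 FPKM in fiPSC. The germ cell RNA helicase Ddx4 stood at 58.8, 80.7 and 50.7 FPKM in SSC. Markers of Sertoli, Leydig, endothelial, macrophage and mast cells were also present in SSC. Listed Sertoli cell markers summed to 1676, 1711 and 1375 FPKM in SSC. Listed genes of SSC self-renewal summed to less, at 377, 407 and 317 FPKM, although the lists differ in size. Markers of Leydig cells, macrophages, mast cells and connective tissue were most abundant in SSC replicate 3. Because the samples are bulk, fewer cells of a type and less RNA per cell cannot be told apart in any value below.

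Most genes differed between the groups. At an adjusted p below 0.05 (limma on log2(FPKM + 1), Benjamini-Hochberg over all 38007 loci tested), 7182 of the 11016 genes passed, which is 65.2%. Of these, 3904 were higher in fiPSC (35.4% of genes tested) and 3278 were lower (29.8%). The median log2 fold change over the genes tested was 0.14, and changes are read against it. It was -0.00048 after quantile normalization and 0.36 under median-ratio scaling. Over all loci tested, 51.8% passed, 28.0% higher and 23.7% lower. In 75.7% of the genes every library of one group lay above every library of the other, 41.2% with fiPSC on top and 34.5% with SSC. By at least 2 on the log2 scale, 807 genes were higher in fiPSC and 1033 lower. At least 10 FPKM was reached in every one of the 6 libraries by 3929 genes. With so large a share called, membership in a list that passed is no result by itself, and the counts and the median of each list are to be read against these shares. Log2 fold changes are differences of log2(FPKM + 1), so that those of weakly expressed genes come out too small.

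**Figure D1:**
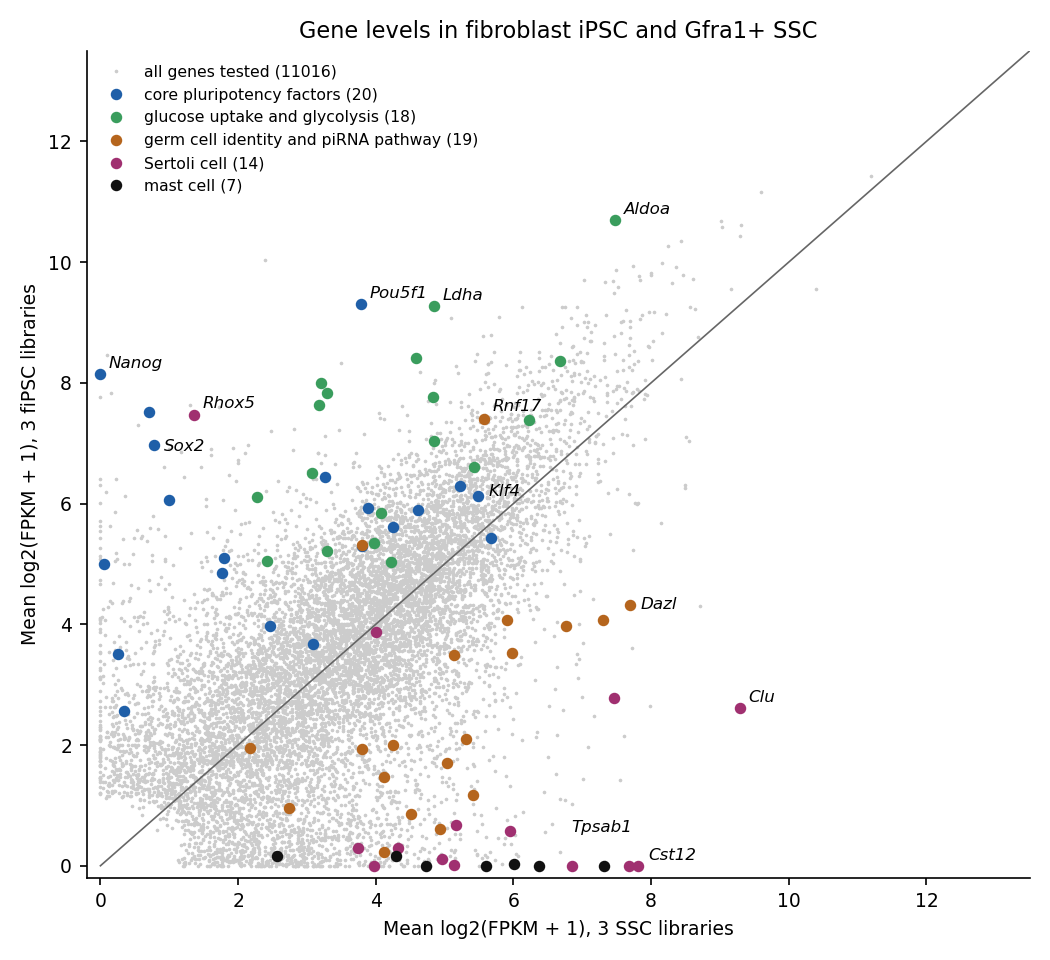
Mean log2(FPKM + 1) of each tested gene in the 3 SSC libraries (horizontal) and the 3 fiPSC libraries (vertical), with the line of equality and 5 gene lists in colour. Pluripotency factors and glycolytic enzymes lie mostly above the line, germ cell, Sertoli cell and mast cell genes mostly below it, and Rhox5 and Rnf17 are exceptions within their lists.

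The 10 protein-coding genes with the largest rise, among those whose groups did not overlap and which reached 10 FPKM in each fiPSC library, were mostly known genes of the pluripotent state. Tdgf1, the Nodal co-receptor also called Cripto, stood at 0, 0.209 and 0 FPKM in SSC and at 341, 348 and 359 FPKM in fiPSC. Nanog was listed at 0 in all SSC libraries and stood at 279, 270.2 and 295 FPKM in fiPSC (adjusted p = 1.19e-06). All 3 fiPSC libraries were close together for both genes. Fbxo2, a ubiquitin ligase subunit that recognises glycoproteins, was also listed at 0 in SSC but spread more widely in fiPSC, from 131 to 319 FPKM. L1td1, an RNA-binding protein derived from a transposon, ran from 211 to 244 FPKM in fiPSC and reached at most 0.367 FPKM in SSC. Esrrb, an orphan nuclear receptor of the pluripotency circuit, rose 288-fold by group means (log2 fold change 6.81, SE 0.13, adjusted p = 4.13e-06), and the dioxygenase Tet1 rose 135-fold. Stmn2, a regulator of microtubules, stood at 161, 143 and 166 FPKM in fiPSC and at no more than 0.862 FPKM in SSC. Tdh, the threonine dehydrogenase on which mouse pluripotent cells rely for one-carbon metabolism, rose 178-fold, and the growth factor Fgf4 was listed at 0 in SSC and stood at 69.1, 90.0 and 77.2 FPKM in fiPSC.

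The remaining gene of the 10 rests on uncertain data. Its locus, at chrX:144364069-144369609 on the plus strand (GRCm38), covers 9.78% of Alg13, a gene of protein glycosylation. It stood at 144, 0 and 0 FPKM in SSC and at 1342, 849 and 1026 FPKM in fiPSC. The SSC libraries disagree among themselves and the standard error of 1.94 was the largest of the 10, and its adjusted p of 0.0171 became 0.0638, 0.0579 and 0.0608 without fiPSC replicates 1, 2 and 3. The loci of Fgf4 and Mro, named below, also cover only 18.7% and 20.8% of their genes.

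The 10 genes with the largest fall were led by genes of other cells of the testis. Cst12 and Cst9, secreted cystatins of Sertoli cells, and Defb19, a defensin of the same cells, were listed at 0 in all fiPSC libraries. Cst12 stood at 197, 271 and 206 FPKM in SSC and Defb19 at 209.8, 211 and 193 FPKM. Clu, the secreted chaperone clusterin, fell from 713, 645 and 538 FPKM to 6.42, 5.51 and 3.78 FPKM, which is 121-fold by group means (log2 fold change -6.68, SE 0.20, adjusted p = 1.68e-05). Each SSC library lay above each fiPSC library. Mro, the nuclear protein maestro of the male gonad, was listed at 0 in fiPSC, and Gatm, the first enzyme of creatine synthesis, stood at 179.7, 211 and 168 FPKM in SSC against at most 2.59 FPKM in fiPSC. Cyp11a1, which starts steroid synthesis by cleaving the side chain of cholesterol, stood at 96.1, 69.4 and 155 FPKM in SSC and at most at 0.202 FPKM in fiPSC. Aldh1a1, an enzyme that makes retinoic acid, was measured on 27.5% of its gene and stood at 130.0, 166 and 187 FPKM in SSC against at most 0.0779 FPKM in fiPSC. The last pair, Tpsab1 and Mcpt4, are proteases of mast cells. Both were listed at 0 in fiPSC, and both differed many-fold among the SSC libraries, Tpsab1 from 50.3 FPKM in replicate 1 to 487 FPKM in replicate 3. Cystatins, defensins and mast cell proteases lie in clusters of similar genes, and how reads were shared among copies is uncertain.

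The core pluripotency factors were higher in fiPSC with few exceptions. Of 20 factors, all tested, 18 were higher in fiPSC and none was lower, with a median log2 fold change of 2.65. Pou5f1, the factor also called Oct4, stood at 16.2, 12.4 and 10.4 FPKM in SSC and at 622, 579 and 695 FPKM in fiPSC, a 48.6-fold rise (log2 fold change 5.52, SE 0.17, adjusted p = 1.89e-05). It was therefore detected in SSC, while Nanog was not. Sox2 stood at 0.933, 0.5 and 0.715 FPKM in SSC and at 120.4, 119.5 and 134 FPKM in fiPSC, on a locus of which 8.01% lies in the gene, so that other transcripts of the same strand may share it. Zfp42, known as Rex1, rose 61.9-fold and Tfcp2l1, a factor downstream of LIF, 13.6-fold.

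Other factors of the same circuit were measured in SSC at differing levels. Klf4 stood at 37.7, 43.9 and 51.0 FPKM in SSC and at 62.7, 79.6 and 64.8 FPKM in fiPSC, a 1.56-fold rise with no overlap of the groups (adjusted p = 0.0148) that was lost after quantile normalization. Its relative Klf2 rose 9.78-fold, from 6.41 to 10.2 FPKM in SSC to 75.5 to 99.9 FPKM in fiPSC. Sall4, a zinc finger factor of both pluripotent and germ cells, rose 2.11-fold, with an adjusted p of 0.0505 without fiPSC replicate 1 and 0.0524 without fiPSC replicate 3 and of 0.109 after quantile normalization, and Tcl1, a co-activator of Akt, rose 2.40-fold. Nfya did not pass (adjusted p = 0.0734), although it passed as higher under median-ratio scaling (0.0297), with all 9 libraries (0.0408) and with 1 locus per gene (0.034). Zfp281 did not pass either and stood at 52.8, 53.9 and 43.4 FPKM in SSC and at 42.9, 38.0 and 46.4 FPKM in fiPSC (log2 fold change -0.23, SE 0.13, adjusted p = 0.194).

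Marker genes of embryonic stem cells behaved alike. Of 20 listed, 16 had a locus and were tested, 14 were higher in fiPSC and 1 was lower, with a median log2 fold change of 3.71. Dppa2, a chromatin factor of early development, was listed at 0 in SSC and stood at 55.5, 42.9 and 57.4 FPKM in fiPSC, on a locus that covers 17.4% of the gene. Dppa3, known as Stella, was low in fiPSC replicate 2, with 29.2, 14.7 and 33.5 FPKM in fiPSC against 2.50, 1.24 and 0 FPKM in SSC. The RNA-binding protein Lin28a, which blocks maturation of let-7 microRNAs, rose 1.99-fold, from 44.3, 45.4 and 32.2 FPKM in SSC to 86.8, 58.9 and 96.7 FPKM in fiPSC (adjusted p = 0.0134). Its adjusted p was 0.0572 without fiPSC replicate 1 and 0.0513 without fiPSC replicate 3, and 0.113 after quantile normalization. Trim71, a target of let-7, rose 1.49-fold, but with an adjusted p of 0.113, 0.116, 0.0617 and 0.0753 without fiPSC replicates 1 and 3 and SSC replicates 1 and 3 respectively. After quantile normalization its log2 fold change was 0.13 (adjusted p = 0.53), and it also missed the threshold without a prior trend, with all 9 libraries and with the replicate block (0.0645, 0.0852 and 0.0917). The exception was Tex19.1, a gene active in germ and pluripotent cells, which was lower in fiPSC at 25.7, 31.9 and 35.1 FPKM against 74.0, 66.9 and 49.2 FPKM in SSC (adjusted p = 0.00586).

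Regulators of the primed state and of later lineages went both ways. Of 18 listed, 15 had a locus and 8 were tested, with 2 higher and 4 lower in fiPSC and a median of -0.84, which turned to 1.73 over the 4 genes with a mean of at least 5 FPKM. With so few genes tested, and background shares of 35.4% higher and 29.8% lower, these counts are no result about the list. The pair that rose was Otx2, from at most 0.558 FPKM in SSC to 34.2, 24.6 and 38.6 FPKM in fiPSC, and Zic2, which stood at 23.2, 23.5 and 23.4 FPKM in fiPSC. Both are known in epiblast cells. Gata4, a factor of endoderm and also of Sertoli cells, fell from 18.7, 18.1 and 20.2 FPKM to at most 0.300 FPKM. In fiPSC, none of the 7 untested genes of this list with a locus reached 2 FPKM.

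**Figure D2:**
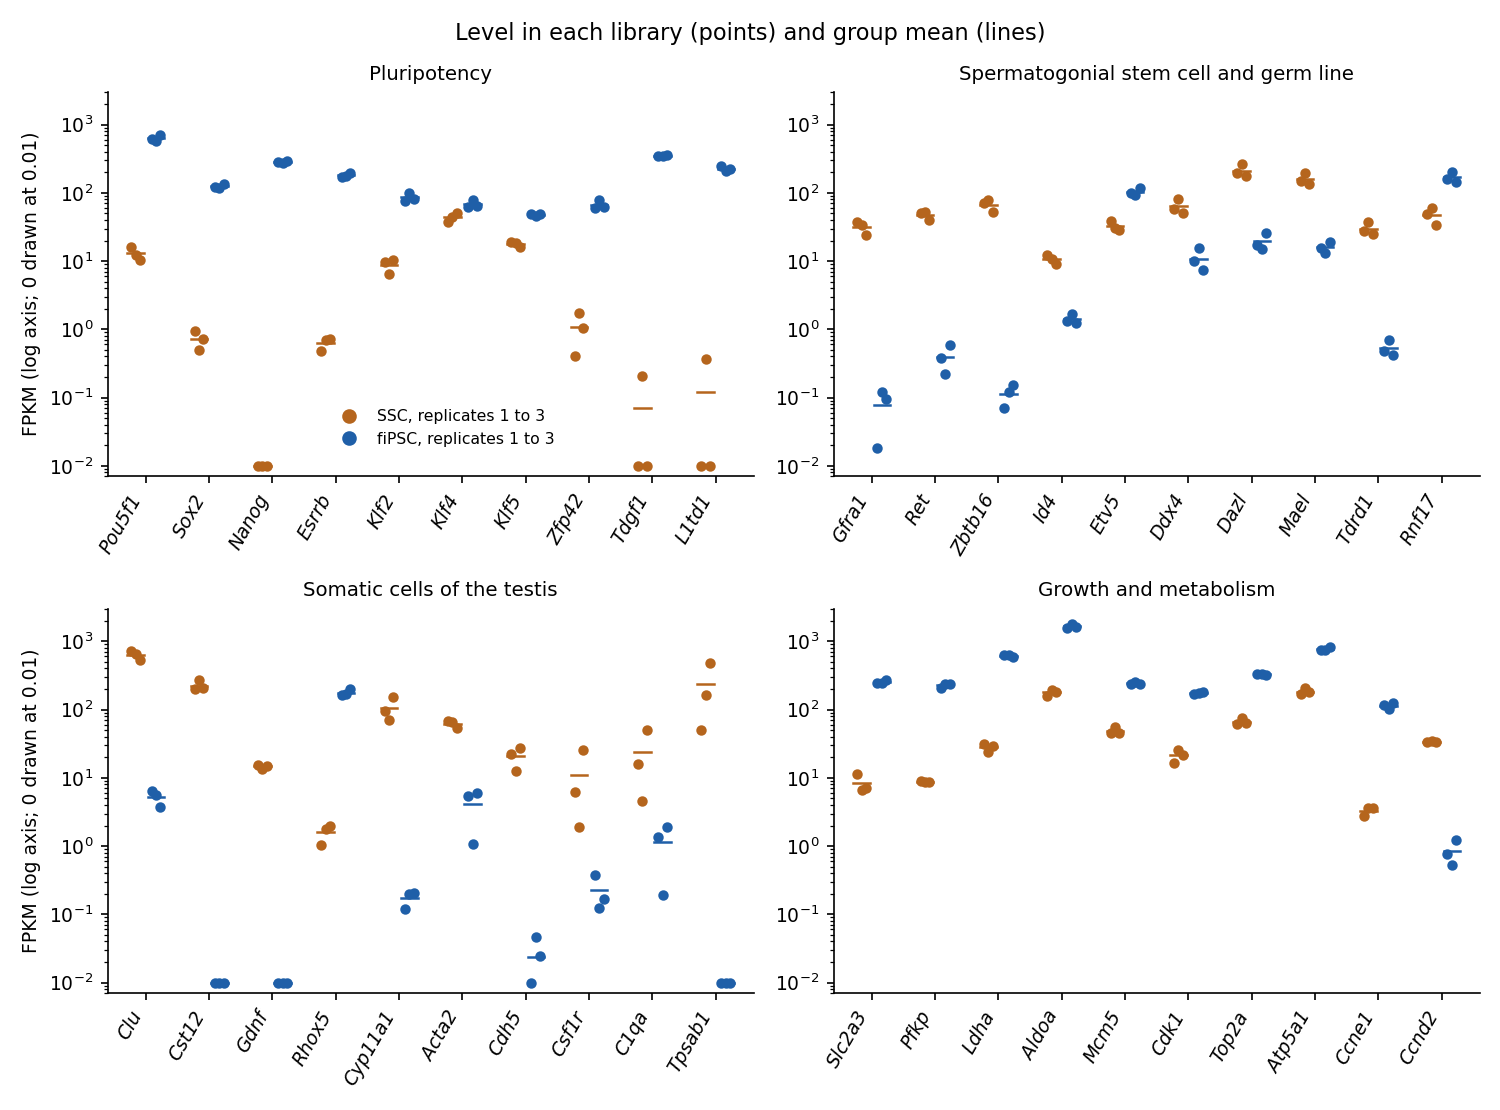
FPKM of 40 genes in each library on a log axis, with SSC replicates as brown points, fiPSC replicates as blue points and group means as lines, and with values of 0 drawn at 0.01. Nanog stands at 0 in all SSC libraries and from 270.2 to 295 FPKM in fiPSC, while Klf4 lies close together in both groups.

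The octamer ATGCAAAT, a motif read by Pou5f1, was searched on both strands of RefSeq promoter windows of the GRCm38.p6 build, each reaching from 250 bases before to 50 bases after a start. It stood in windows of 1.97% of 27025 genes. Among the core pluripotency factors 1 of 15 genes with a window held it, and among the embryonic stem cell marker genes 0 of 13. The gene was Zfp42. The 200 bases before its start, at chr8:43307010-43307209 on the minus strand, are printed 5′ to 3′ on the strand of the gene with the match in capitals, which reads ATTTGCAT because the octamer lies on the other strand.
Zfp42: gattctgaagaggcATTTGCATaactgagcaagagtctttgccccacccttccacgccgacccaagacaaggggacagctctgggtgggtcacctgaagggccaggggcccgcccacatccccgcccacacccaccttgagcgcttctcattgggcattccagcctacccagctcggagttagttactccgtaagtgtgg
A match is a description of the sequence and says nothing of binding in these cells.

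Signalling genes were found on both sides of the comparison. Of 15 LIF and BMP genes tested, 3 were higher in fiPSC and 9 lower, with a median of -0.91. The kinase Jak1 stood at 49.5, 52.4 and 42.7 FPKM in SSC and at 10.6, 13.9 and 9.76 FPKM in fiPSC, and its target Stat3, the transducer of LIF, at 59.2, 60.5 and 61.9 FPKM against 16.5, 19.2 and 22.8 FPKM. Both were lower in all 3 fiPSC libraries than in any SSC library (adjusted p = 0.000235 and 0.000261). Socs3, which is induced by Stat3 and inhibits the same receptor, was higher in fiPSC by 2.80-fold. The related kinases Pim1 and Pim3 went opposite ways, as Pim1 fell 2.67-fold and Pim3 rose 2.84-fold. Bmpr2, the type II receptor for BMP, fell 6.66-fold and Id2, a BMP target, 18.1-fold. Lifr itself did not pass. Sertoli, Leydig, macrophage and connective tissue markers were also lower in fiPSC, and their part in the lower genes of this list was not tested.

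In the Nodal pathway, ligand and co-receptor were high in fiPSC and the transducers were lower. Nodal stood at 0, 0.449 and 0.375 FPKM in SSC and at 38.6, 44.6 and 41.0 FPKM in fiPSC, and Pcsk6, a protease that processes the Nodal precursor, rose 5.79-fold. Smad3 fell 4.29-fold, from 24.4, 22.7 and 28.7 FPKM to 6.13, 5.84 and 5.68 FPKM, and Smad2 fell 1.87-fold. Of 11 genes tested, 6 were higher, 4 lower, with a median of 0.48 (0.17 after quantile normalization), and 4 were higher without fiPSC replicate 1 or 3.

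FGF and ERK genes showed no common direction, with 6 of 16 tested higher and 4 lower, near the background shares. Their median of 0.03 turned to -0.14 after quantile normalization and to -0.08 over 17 genes without a filter on low values. It was -0.07 without fiPSC replicate 3 and -0.13 without SSC replicate 2. Fgf4 was listed at 0 in SSC, as given above. The FGF targets Etv4 and Etv5, which are transcription factors of the ETS family, rose 2.78-fold and 3.18-fold, whereas Dusp6, a phosphatase that restrains ERK, was lower at 11.6, 11.5 and 14.8 FPKM against 45.0, 30.4 and 31.7 FPKM in SSC. Among 18 Wnt genes tested, 6 were higher and 9 lower, with a median of -0.65. The TCF factors, which act with the Ctnnb1 protein at Wnt targets, divided. Tcf7l1, the repressor of the family in pluripotent cells, rose from 1.46, 1.84 and 2.64 FPKM to 13.3, 10.7 and 12.9 FPKM, and Lef1 rose 3.69-fold. Tcf7l2 and Tcf7 fell 4.02-fold and 2.38-fold. The receptor Fzd7 was 4.08-fold higher in fiPSC.

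Writers and erasers of DNA methylation differed strongly. Of 11 genes tested, 9 were higher in fiPSC and 1 was lower, with a median of 2.08. Dnmt3l, the cofactor of the de novo methyltransferases, stood at 0.622, 0 and 0 FPKM in SSC and at 86.1, 54.1 and 125 FPKM in fiPSC, and Dnmt3b at 17.4, 15.4 and 18.7 FPKM against 116, 49.8 and 158 FPKM. Its locus covers 43.5% of the gene. In both genes, fiPSC replicate 2 was the lowest of its group and replicate 3 the highest. The maintenance methyltransferase Dnmt1 rose 1.84-fold, a call lost after quantile normalization (log2 fold change 0.020, adjusted p = 0.915), and its partner Uhrf1, which recognises hemimethylated DNA, rose 4.43-fold. Zfp57 and Trim28, which together protect methylation at imprinted regions, rose 16.1-fold and 4.08-fold. Within the Tet dioxygenases, which oxidise 5-methylcytosine, Tet1 stood at 1.48, 1.55 and 1.36 FPKM in SSC and at 194, 208 and 191 FPKM in fiPSC. Tet2 rose 4.53-fold. Tet3 went the other way, from 18.7, 17.5 and 21.6 FPKM to 1.14, 1.01 and 1.11 FPKM (log2 fold change -3.28, SE 0.17, adjusted p = 7.67e-05).

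Most genes of Polycomb subunits were higher in fiPSC. Of 18 tested, 12 were higher in fiPSC and 4 lower, with a median of 1.31. In Polycomb complex 2, which methylates lysine 27 of histone H3, the catalytic subunit Ezh2 rose from 7.85, 9.27 and 6.38 FPKM to 56.9, 51.6 and 49.7 FPKM, and Suz12 and Eed rose 3.23-fold and 2.91-fold. The alternative catalytic subunit Ezh1 did not pass and its groups overlapped, at 12.5, 14.1 and 9.62 FPKM in SSC and 10.8, 12.0 and 9.85 FPKM in fiPSC. In Polycomb complex 1, the chromodomain subunit Cbx7 rose 6.22-fold, to 38.6, 38.3 and 43.6 FPKM, while Cbx8 fell from 8.47, 14.6 and 12.3 FPKM to 0.921, 0.579 and 0.618 FPKM. Cbx2 and Cbx8 lie near each other on chromosome 11, and both were lower, Cbx2 by 1.72-fold with an adjusted p of 0.0708, 0.11 and 0.0871 without fiPSC replicates 1, 2 and 3. The call of Cbx2 was also lost with the replicate block (adjusted p = 0.084) and under median-ratio scaling (0.135). Phc1 rose 2.50-fold and Phc2 fell 6.38-fold. Among 13 genes of histone H3 lysine 9 methylation, 6 were higher and 1 was lower, with a median of 0.48, but after quantile normalization 3 were higher and 3 lower. Readers of this mark, the HP1 proteins Cbx1 and Cbx5, rose 5.86-fold and 4.61-fold, and the demethylase Kdm4c rose 8.04-fold. The methyltransferase Suv39h1 was the gene that fell, 2.85-fold.

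**Figure D3:**
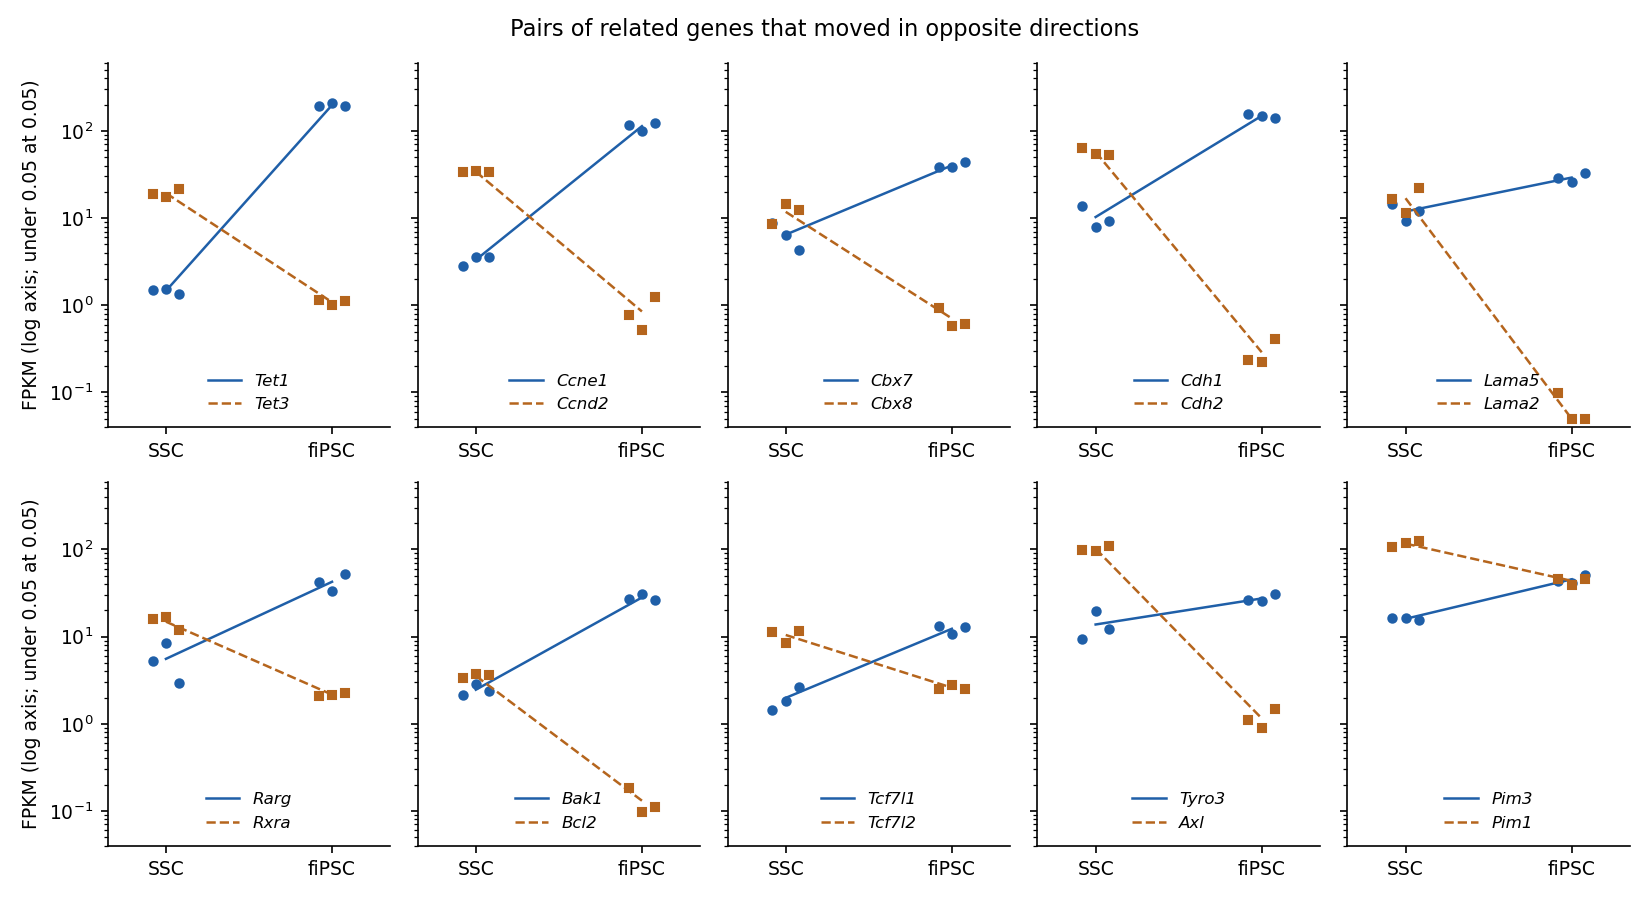
FPKM on a log axis in the 3 SSC and the 3 fiPSC libraries for 10 pairs of related genes chosen after their values were seen, with 1 member higher in fiPSC (blue, solid) and 1 lower (brown, dashed), lines joining group means and values under 0.05 drawn at 0.05. Tet1 and Tet3, Ccne1 and Ccnd2, and Cdh1 and Cdh2 cross between the groups.

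Most genes of SSC self-renewal were lower in fiPSC. Of 15 listed, 12 had a locus and were tested, 9 were lower in fiPSC and 1 was higher, with a median of -2.08. Ret, the signalling kinase of the Gdnf receptor, stood at 51.0, 52.8 and 40.3 FPKM in SSC and at 0.378, 0.223 and 0.592 FPKM in fiPSC. Zbtb16, the transcription factor Plzf, fell from 72.0, 77.4 and 51.9 FPKM to at most 0.151 FPKM (log2 fold change -5.91, SE 0.20, adjusted p = 2.36e-05). Gfra1, which counts among the 9, was used to select the SSC, so its own difference is no finding. Id4, a marker of the stem cell pool, was lower by 7.61-fold. The gene that rose was Etv5, a factor with a role in both cell types. Itga6, an integrin used to sort spermatogonia, did not pass and stood at 66.7, 80.6 and 77.7 FPKM in SSC and at 71.9, 71.5 and 75.1 FPKM in fiPSC. The surface marker Thy1 did not pass either and reached 2.16 FPKM at most in SSC, although it passed as higher in fiPSC without SSC replicate 2 (adjusted p = 0.0259), with all 9 libraries (0.0447) and with 1 locus per gene (0.0292).

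Of 9 genes of spermatogonial differentiation tested, 3 were higher in fiPSC and 4 lower, with a median of -0.47, which turned to 0.12 without SSC replicate 2. With so few genes tested, these counts are near the background shares of 35.4% and 29.8% and are no result about the list. Kit, the receptor that marks differentiating spermatogonia and is also known in pluripotent cells, stood at 10.1, 10.1 and 8.86 FPKM in SSC and at 23.9, 27.8 and 26.0 FPKM in fiPSC. Sohlh1 fell from 17.4, 30.2 and 12.5 FPKM to at most 0.212 FPKM and Dmrt1, a regulator of mitosis and meiosis in spermatogonia, fell 6.17-fold. Stra8, which responds to retinoic acid, stood at 6.06, 24.1 and 6.10 FPKM in SSC and at 18.5, 19.8 and 32.8 FPKM in fiPSC. Its groups overlapped through SSC replicate 2 (adjusted p = 0.124, and 0.00489 without that library).

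Most genes of germ cell identity and the piRNA pathway were lower in fiPSC. Of 19 genes tested, 16 were lower and 2 higher, with a median of -2.65. Dazl, an RNA-binding protein of germ cells, stood at 194, 263 and 174 FPKM in SSC and at 17.4, 15.3 and 25.8 FPKM in fiPSC, a 10.8-fold fall. Mael, the piRNA factor maelstrom, fell from 147, 196 and 135 FPKM to 15.4, 13.2 and 19.2 FPKM, and Ddx4 fell 5.82-fold. These 3 genes were thus lower but still at or above 7.42 FPKM in every fiPSC library. Tdrd1, a Tudor scaffold of the piRNA machinery, went further, from 27.9, 37.1 and 25.0 FPKM to 0.475, 0.701 and 0.419 FPKM, and Tdrd9 fell 99.6-fold. The exceptions were Rnf17, which rose from 49.7, 59.5 and 33.9 FPKM to 159.6, 203 and 146 FPKM, and Tdrd12, which rose 2.97-fold. Both are themselves Tudor domain proteins. Pld6 did not pass.

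Of 17 meiosis genes tested, 8 were lower in fiPSC and 6 higher, with a median of -0.68, and 5 were lower and 4 higher without fiPSC replicate 1 or 3. Against the background shares of 35.4% higher and 29.8% lower, genes on both sides are no result about the list. Components of the synaptonemal complex, the protein axis that pairs homologous chromosomes, were found on both sides. Sycp2 went from 44.8, 40.1 and 51.1 FPKM to 0.671, 0.438 and 1.42 FPKM, and Sycp1 fell 4.81-fold. Sycp3 fell 3.79-fold on a locus of which 26.9% lies in the gene. In contrast, Dmc1, the meiotic strand exchange recombinase, rose from 3.95, 6.28 and 5.08 FPKM to 24.8, 31.9 and 19.3 FPKM. The HORMA domain proteins Hormad1 and Hormad2 rose 2.85-fold and 4.18-fold, and Syce2, also a component of the synaptonemal complex, rose from 28.9, 47.2 and 34.6 FPKM to 116, 116 and 91.4 FPKM. Each of these genes kept the libraries of the groups apart.

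Many of these germ cell genes carry the E-box CACGTG near their start, a palindrome that reads the same on both strands. It stood in the windows of 8.09% of all genes, in 8 of 17 germ cell identity and piRNA genes with a window (47.1%) and in 6 of 18 meiosis genes (33.3%). Of the 8, 7 were lower in fiPSC and 1 did not pass, and of the 6, 4 were lower and 2 higher. The E-box was thus found on both sides of the comparison. To show this, the 200 bases before the start are printed for 2 genes that fell and 1 that rose, 5′ to 3′ on the strand of the gene, with E-boxes in capitals. They lie at chr12:111971359-111971558 for Tdrd9, chr10:88459387-88459586 for Sycp3 and chr3:95559477-95559676 for Hormad1, all on the plus strand (RefSeq, GRCm38.p6).
Tdrd9: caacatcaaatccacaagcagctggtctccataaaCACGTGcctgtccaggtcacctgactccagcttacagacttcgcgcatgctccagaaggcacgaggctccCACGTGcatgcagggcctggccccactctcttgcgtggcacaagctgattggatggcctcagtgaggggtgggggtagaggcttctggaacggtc
Sycp3: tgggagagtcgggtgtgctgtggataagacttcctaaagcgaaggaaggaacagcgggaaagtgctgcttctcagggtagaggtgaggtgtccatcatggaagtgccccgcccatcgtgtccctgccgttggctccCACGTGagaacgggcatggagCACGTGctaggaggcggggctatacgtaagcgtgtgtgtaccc
Hormad1: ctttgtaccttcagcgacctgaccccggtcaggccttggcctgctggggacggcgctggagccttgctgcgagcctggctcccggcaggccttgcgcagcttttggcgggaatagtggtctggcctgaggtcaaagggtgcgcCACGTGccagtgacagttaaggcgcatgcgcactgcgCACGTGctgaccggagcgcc
Tdrd9 holds E-boxes that begin 165 and 95 bases before its start, Sycp3 holds them 64 and 43 bases before, and Hormad1 57 and 20 bases before.

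Retinoic acid, made from vitamin A, drives differentiation of both spermatogonia and pluripotent cells. Of 14 genes of its pathway tested, 9 were lower in fiPSC and 3 higher, with a median of -1.66. Enzymes fell, among them Rdh10, which oxidises retinol, from 14.9, 9.78 and 11.2 FPKM to 1.55, 1.41 and 1.43 FPKM. Cyp26b1, which degrades retinoic acid, fell from 5.91, 5.28 and 9.56 FPKM to at most 0.206 FPKM. The receptors exchanged rank. Rarg rose from 5.28, 8.47 and 2.90 FPKM to 42.8, 33.0 and 51.7 FPKM, while its partner Rxra fell 6.86-fold. Several of these genes are expressed by somatic cells of the testis, whose markers moved in the same direction, and the share of those cells in the result was not tested.

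Markers of the somatic cells of the testis were among the largest falls. Of 14 Sertoli cell genes tested, 12 were lower in fiPSC and 1 higher, with a median of -4.76. Their summed level was 1676, 1711 and 1375 FPKM in SSC, led by Clu, and 189, 196 and 227 FPKM in fiPSC, where Rhox5 made up most of it. Sox9, the factor that specifies Sertoli cells, stood at 30.5, 28.0 and 32.1 FPKM in SSC and at most at 0.114 FPKM in fiPSC. Kitl, the ligand of Kit, fell 123-fold, and Gdnf itself stood at 15.3, 13.7 and 15.1 FPKM in SSC and was listed at 0 in fiPSC. Rhox5, a homeobox gene of the X chromosome, was the gene that rose, from 1.03, 1.77 and 1.98 FPKM to 162, 172 and 197 FPKM (log2 fold change 6.12, SE 0.18, adjusted p = 1.68e-05).

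All 7 Leydig cell genes tested were lower in fiPSC, with a median of -3.53. They summed to 327, 287 and 501 FPKM in SSC and to 25.2, 28.9 and 24.1 FPKM in fiPSC. Cyp17a1, a steroid hydroxylase of androgen synthesis, stood at 54.4, 45.5 and 71.0 FPKM in SSC, and Nr5a1, the regulator of steroid enzymes, measured on part of its gene, was listed at 0 in fiPSC. The site CAAGGTCA, read by Nr5a1, was found in 0 of 7 windows of these genes and in 1.76% of all genes. Among 10 endothelial genes, with a median of -1.69, 6 were lower, including Cdh5, the cadherin of blood vessels, at 22.2, 12.6 and 27.2 FPKM in SSC and at most 0.0458 FPKM in fiPSC. The exception was Pecam1, which is also known in pluripotent cells and was 2.22-fold higher in fiPSC. Its call was lost after quantile normalization (log2 fold change 0.63, adjusted p = 0.16). Of 6 peritubular myoid genes, 3 were lower and 1 higher, with a median of -1.82, and smooth muscle actin Acta2 fell 15.1-fold. The number of myoid genes that were higher was 0 without fiPSC replicate 1 and 2 without SSC replicate 3.

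Markers of blood-derived cells were uneven among the SSC libraries. All 7 mast cell genes were lower in fiPSC, with a median of -5.60. Their summed level was 118, 446 and 1233 FPKM in SSC replicates 1, 2 and 3 and no more than 0.368 FPKM in fiPSC. Cma1, a chymase of these cells, stood at 15.5, 75.8 and 212 FPKM in SSC. The macrophage genes summed to 66.2, 24.8 and 211 FPKM in SSC and to 15.7, 13.8 and 15.1 FPKM in fiPSC, and 5 of 8 tested were lower, with a median of -2.83. C1qa, a complement subunit of macrophages and the most abundant of them in SSC, stood at 15.8, 4.61 and 51.1 FPKM there, and its call was lost without SSC replicate 1 (adjusted p = 0.0511) and without fiPSC replicates 1, 2 or 3 (0.0626, 0.0815 and 0.0518). Cd68 did not pass (it did without SSC replicate 3, higher in fiPSC, adjusted p = 0.0494) and made up most of the sum in fiPSC, at 10.2, 12.7 and 9.95 FPKM. Without SSC replicate 3, 7 mast cell and 6 macrophage genes were lower in fiPSC. The macrophage count was not stable, with 1 gene lower without fiPSC replicate 1 or 2, 2 without fiPSC replicate 3, 3 without SSC replicate 1 and 7 without SSC replicate 2, whereas all 7 mast cell genes were lower in each of these fits. Red blood cell genes could hardly be judged, since 1 of 7 was tested and it did not pass. Without SSC replicate 2 that gene passed as lower in fiPSC, with a log2 fold change of -1.49.

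Connective tissue genes were lower in fiPSC as well, with 7 of 10 fibroblast or feeder genes lower, none higher and a median of -2.12. They summed to 132, 118 and 346 FPKM in SSC and to 36.0, 12.8 and 45.1 FPKM in fiPSC. Col3a1, a fibrillar collagen, stood at 32.6, 27.4 and 95.9 FPKM in SSC and at 10.2, 2.93 and 14.1 FPKM in fiPSC (adjusted p = 0.0241, but 0.0592 without fiPSC replicate 1 and 0.0648 without fiPSC replicate 2). The proteoglycan decorin, Dcn, was lowest in the same fiPSC library, at 4.74, 1.68 and 5.86 FPKM. The number of these genes that were lower was 5 without fiPSC replicate 1 or 2.

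**Figure D4:**
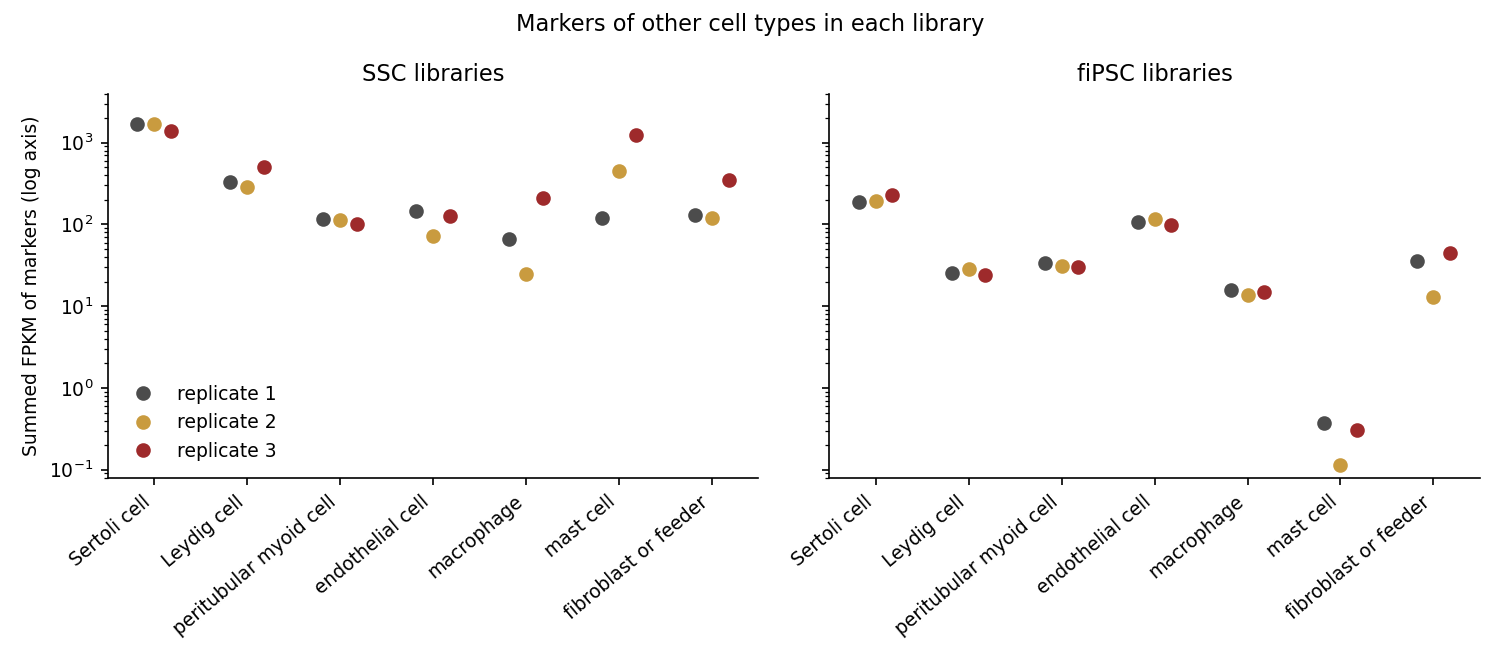
Summed FPKM, on a log axis, of the marker genes with a locus for 7 other cell types in each SSC library (left) and fiPSC library (right), with replicates in 3 colours. Mast cell markers range from 118 to 1233 FPKM among the SSC libraries and stay at or below 0.368 FPKM in fiPSC, and fibroblast or feeder markers are lowest in fiPSC replicate 2.

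Adhesion genes divided along the line between epithelial and mesenchymal cells. Of 11 epithelial genes, 7 were higher in fiPSC and 2 lower, with a median of 1.47 (0.86 after quantile normalization), and of 10 mesenchymal genes, 8 were lower and 1 higher, with a median of -1.52. Cdh1, the epithelial cadherin that pluripotent colonies need, rose from 13.6, 7.92 and 9.32 FPKM to 156, 149 and 141 FPKM (log2 fold change 3.76, SE 0.19, adjusted p = 6.88e-05). Cdh2, the cadherin of neural, mesenchymal and Sertoli cells, fell from 64.0, 54.1 and 53.4 FPKM to 0.237, 0.223 and 0.408 FPKM. Zeb2, a repressor of Cdh1, fell from 53.8, 56.1 and 87.4 FPKM to at most 0.601 FPKM. Against their lists, the tight junction protein Ocln was lower in fiPSC by 9.03-fold, and fibronectin, Fn1, was higher by 4.78-fold. Sertoli, myoid and connective tissue markers move with these genes, and their part in the result was not tested.

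Of 14 basement membrane genes tested, 8 were lower in fiPSC and 3 higher, with a median of -0.86. Col4a1, a chain of collagen IV, stood at 137, 94.8 and 158 FPKM in SSC and at 6.68, 4.86 and 6.49 FPKM in fiPSC. Laminin chains went opposite ways, as Lama2 fell to at most 0.0989 FPKM and Lama5, a laminin alpha chain of pluripotent colonies, rose 2.45-fold. Agrn and Nid2 rose 4.34-fold and 3.0-fold. Of 10 genes for the uptake of apoptotic cells, a task of Sertoli cells and macrophages, 5 were lower in fiPSC, 2 were higher and 3 did not pass, with a median of -0.71, which turned to 0.10 over the 8 genes with a mean of at least 5 FPKM. The lower count was 3 without fiPSC replicate 1, fiPSC replicate 2 or SSC replicate 1, and none was higher without fiPSC replicate 2 or 3. The receptor Axl stood at 99.3, 95.7 and 109.5 FPKM in SSC and at 1.11, 0.894 and 1.46 FPKM in fiPSC, and its ligand Gas6 fell 12.3-fold. Tyro3, a receptor of the same family, was higher in fiPSC by 1.99-fold, with an adjusted p of 0.06, 0.0541 and 0.0743 without fiPSC replicates 1, 2 and 3. Macrophage, Sertoli and connective tissue markers move with these lists too. Of 7 genes of antigen presentation and interferon response tested, 5 were lower and none higher, with a median of -0.95, and with 3 lower without fiPSC replicate 1 and 2 without fiPSC replicate 2.

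The listed genes of mitosis and replication licensing were higher in fiPSC almost without exception. All 20 mitosis genes passed in that direction, with a median of 1.88, and 20 of 21 replication licensing genes, with a median of 1.72. Mcm5, a subunit of the replicative helicase, rose from 46.0, 55.4 and 45.2 FPKM to 240.5, 249 and 240.4 FPKM. Gmnn, which prevents origins from being licensed again in the same cycle, rose 5.98-fold, and Orc4 was the gene that did not pass. Cdk1, the kinase that drives entry into mitosis, stood at 16.6, 25.6 and 21.8 FPKM in SSC and at 169, 176 and 182 FPKM in fiPSC (log2 fold change 3.01, SE 0.16, adjusted p = 8.25e-05). Birc5, or survivin, rose 9.63-fold. The part of somatic testis cells in the SSC levels of these genes was not tested. The smallest mitotic change was that of the kinetochore motor Cenpe, 1.31-fold, which missed the threshold without fiPSC replicate 1 (adjusted p = 0.0834) and without fiPSC replicate 2 (0.0645). It also missed it after quantile normalization (log2 fold change 0.10, adjusted p = 0.484), without a prior trend (0.0719) and with the replicate block (0.0775).

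The site TTTNGCGC, read by E2F factors that control entry into S phase, stood in the windows of 1.57% of all genes and of 6 of 19 replication licensing genes (31.6%). Of these 6, 4 were higher in fiPSC and 2 had no locus. In Mcm5 it occurs on both strands in overlapping copies, which are printed in capitals in the 200 bases before the start, at chr8:75109309-75109508 on the plus strand (RefSeq, GRCm38.p6).
Mcm5: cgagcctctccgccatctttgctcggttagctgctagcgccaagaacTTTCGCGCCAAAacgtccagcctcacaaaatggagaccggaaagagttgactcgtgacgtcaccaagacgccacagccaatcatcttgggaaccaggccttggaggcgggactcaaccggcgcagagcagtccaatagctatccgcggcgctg

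Of 17 genes tested for control of the G1 phase, 6 were higher in fiPSC and 5 lower, with a median of 0.48. These counts are close to the background shares of 35.4% and 29.8% and are no result about the list, so only single genes are described. Ccne1, the cyclin that drives S phase and is high throughout the cycle of pluripotent cells, stood at 2.79, 3.60 and 3.56 FPKM in SSC and at 115, 101 and 124 FPKM in fiPSC. Ccnd2, a D-type cyclin known in spermatogonia, fell from 33.5, 34.7 and 33.9 FPKM to 0.776, 0.525 and 1.25 FPKM. Its relatives Ccnd1 and Ccnd3 rose 4.27-fold and 6.23-fold. The part of somatic testis cells in the SSC level of Ccnd2 was not tested. The inhibitors Cdkn2a and Cdkn1c fell 7.07-fold and 6.60-fold, and the retinoblastoma gene Rb1 fell 3.72-fold. The inhibitor Cdkn1a did not pass (adjusted p = 0.10), but it passed as higher in fiPSC under median-ratio scaling (log2 fold change 0.73, adjusted p = 0.0216).

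Transcripts of glucose uptake and glycolysis showed the largest uniform shift of the metabolic lists, with all 18 tested genes higher in fiPSC and a median of 2.78. Glucose use was not measured, and the list was chosen with earlier results of these data known. The transporter Slc2a1 rose 7.87-fold, and Slc2a3 stood at 11.4, 6.69 and 7.19 FPKM in SSC and at 248, 245 and 270.4 FPKM in fiPSC. Phosphofructokinase, which commits glucose to glycolysis, rose in its Pfkl and Pfkp forms by 24.4-fold and 25.8-fold. Ldha, which converts pyruvate to lactate, went from 31.3, 23.9 and 28.8 FPKM to 633, 624 and 598 FPKM (log2 fold change 4.42, SE 0.12, adjusted p = 1.38e-05). Slc16a3, which exports lactate, rose 17.1-fold. Several of these enzymes have many processed pseudogenes, and the loci of Slc2a3 and Eno1 cover 21.2% and 44.7% of their genes, so their levels are less certain than their direction, since for every gene of the list all fiPSC libraries lay above all SSC libraries.

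The respiratory chain moved in the same direction but less, with 19 of 21 genes higher and a median of 1.27 (12 higher, 1 lower and a median of 0.78 after quantile normalization). Atp5a1, the alpha subunit of ATP synthase, rose 4.18-fold. Sdhc did not pass (adjusted p = 0.0578), and SSC replicate 3 stood apart, at 172 FPKM against 26.4 and 37.9 FPKM in the other SSC libraries. Without it the adjusted p was 0.000974, and Sdhc also passed under median-ratio scaling (0.0367), with all 9 libraries (0.0239), with the replicate block (0.0224) and with 1 locus per gene (0.021). Cholesterol synthesis differed little, with 6 of 15 genes lower, none higher and a median of -0.06, which changed sign to 0.17 under median-ratio scaling. These calls were not stable, with 3 higher and 1 lower under median-ratio scaling, 1 lower without a prior trend, 1 higher and 2 lower with the replicate block, and 3 lower without fiPSC replicate 1 or 3. Regulators of apoptosis were mostly higher, 9 of 14 tested, with 1 lower and a median of 1.12 (8 higher, 2 lower and 0.56 after quantile normalization). The effectors Bax and Bak1, which open the mitochondrial membrane, rose 5.14-fold and 11.4-fold. The protective gene Bcl2 fell from 3.32, 3.72 and 3.59 FPKM to at most 0.183 FPKM.

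**Figure D5:**
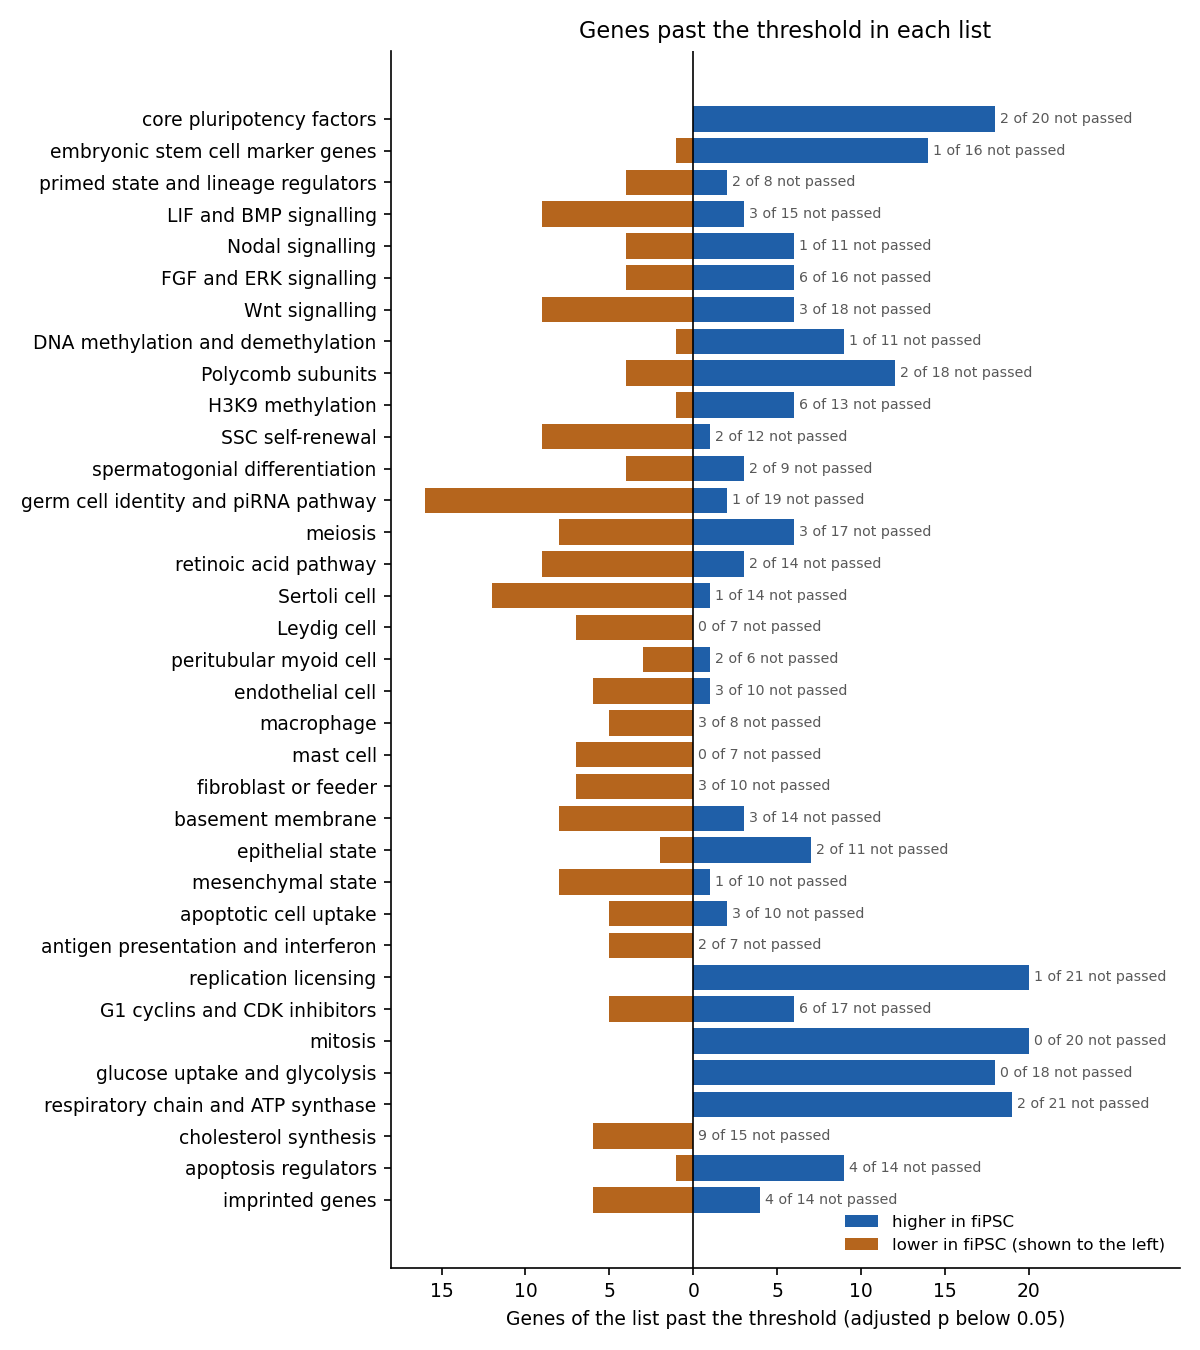
Number of genes past an adjusted p of 0.05 in each of the 35 lists with at least 5 genes tested, with genes higher in fiPSC to the right and genes lower in fiPSC to the left, and the number not passed beside each bar. Mitosis, replication licensing, glycolysis and respiratory chain lists extend only to the right, while Leydig and mast cell lists extend only to the left.

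Of 14 imprinted genes tested, which are expressed from a single parental allele, 4 were higher in fiPSC and 6 lower, with a median of -0.69. Against the background shares of 35.4% higher and 29.8% lower, these counts are no result about the list. The noncoding RNA H19 stood at 70.6, 61.9 and 111 FPKM in SSC and at 16.6, 6.66 and 15.6 FPKM in fiPSC. It was highest in SSC replicate 3 and lowest in fiPSC replicate 2, as were the summed fibroblast or feeder markers, whose part in the result was not tested. The Notch-related ligand Dlk1, which Leydig and connective tissue cells are known to make, fell 45.8-fold and was highest in SSC replicate 3, at 13.2, 15.6 and 43.8 FPKM. The growth inhibitor Grb10 fell 7.01-fold. In the other direction, Slc38a4, an amino acid transporter, rose from 2.57, 2.53 and 2.90 FPKM to 91.5, 91.0 and 81.6 FPKM, and Peg3 and Impact rose 4.38-fold and 8.33-fold. Meg3 and Igf2r did not pass, although without SSC replicate 3 Meg3 was higher in fiPSC (adjusted p = 0.00701). Total levels do not show which allele was expressed.

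Genes of the Y chromosome were present in all 6 libraries. Of 4 tested, Uty and Eif2s3y were higher in fiPSC by 1.85-fold and 1.49-fold, and Ddx3y and Kdm5d did not pass. After quantile normalization the call of Eif2s3y was lost (adjusted p = 0.117) and Ddx3y passed as lower (log2 fold change -0.77, adjusted p = 0.0287). With all 9 libraries in the fit, Uty and Eif2s3y missed the threshold (adjusted p = 0.493 and 0.736). That fit includes the SSC-derived iPSC, where the Y-linked genes summed to 130, 0.370 and 106 FPKM in replicates 1, 2 and 3. The effect of its replicate 2 on these calls was not tested.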

How the data were processed

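Per the labels, total RNA was depleted of ribosomal RNA before stranded mRNA libraries were made, while the study's methods name only the library kit and no depletion. Per the submitters' processing notes, reads were processed with Trimmomatic 0.32, TopHat2 2.0.9, Bowtie2 2.1.0, Cufflinks 2.2.1 and Cuffdiff, with mm9 named as the build. The authors deposited FPKM for each locus and library, which are normalized values and not counts, so no count model was used. Printed gene names were not used, nor was a summary file of the series, and 1 of 54914 loci had no value in a library and was dropped. Of the stranded loci, 92.8% overlapped a protein-coding gene on their own strand in GRCm38, and a locus was named for a gene where at least 50% of a single protein-coding gene or of the locus overlapped. Noncoding genes and loci without a strand needed that share of both, and 12468 of the 12736 genes with a locus had a stranded one.

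Values were tested as log2(FPKM + 1) with limma 3.58.1 in R 4.3.3, with a prior trend, on the 38007 loci that reached 1 FPKM in at least 3 of the 6 libraries. P-values were two-sided and adjusted by the Benjamini-Hochberg method over these loci, with a threshold of 0.05. An exact permutation test of 3 against 3 libraries cannot go below 0.1. Lists were described by counts and medians, not tested. The text names the 10 protein-coding genes with the largest rise and the 10 with the largest fall among those past the threshold, without overlap and with at least 10 FPKM in each library of the higher group, and some genes of 37 lists holding 561 genes, of which 488 had a locus. Values of some single genes of these lists are not reported here. Members and lists were chosen with earlier results of these data known. Fragment depth was estimated from the steps between low FPKM values. Ratios named as folds are of group means of the deposited FPKM. The fit was also run on simulated data, and that run is not used here as support for the threshold of 0.05. Alternatives were another pseudocount, other filters, scalings and library sets, a replicate block, a fold threshold and a fit without a prior trend. Tables were handled in Python 3.11.15 with pandas 2.3.3 and numpy 2.4.6, and plots were drawn with matplotlib 3.10.9.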

Additional observations from a re-analysis of the deposited data

How the results depend on the processing

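Under every alternative run, the count of genes past the threshold stayed within 1.5 times the 7182 reported. It was 7054 with a pseudocount of 0.1, 7332 without a filter on low values, 5639 at a mean of at least 5 FPKM, 6937 without a prior trend, 7405 with all 9 libraries, 7845 with 1 locus per gene and 4979 with a fold change of at least 2. Leaving out each library in turn gave 5791 to 7276 genes, of which 3083 to 3915 were higher and 2708 to 3361 lower in fiPSC. Quantile normalization called 3323 genes higher and 3655 lower, and median-ratio scaling 4576 higher and 2767 lower. The median log2 fold change over genes was 0.14 as reported, -0.00048 after quantile normalization and 0.36 after median-ratio scaling, and over loci it was 0.17, 0.13 and 0.35. Same-numbered libraries did not deviate together (correlations of -0.0024, -0.0154 and -0.0206), so the numbers were taken as names only, and the fit with the replicate block called 6289 genes.

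Of 158 named genes past the threshold, 142 passed under all 16 alternatives that gave a value and 16 were lost in at least 1. A turned direction was seen for 8 named genes, of which Ctnnb1 alone had passed the threshold. Median-ratio scaling turned Ezh1 to 0.10, Igf2r to 0.15, Itga6 to 0.20, Lifr to 0.15 and Zfp281 to 0.0060. Quantile normalization turned Ctnnb1 to -0.52 (limma, adjusted p = 0.00989) and Orc4 to -0.12, and made Igf2r (-0.33, adjusted p = 0.0376), Itga6 (-0.69, 0.00125) and Zfp281 (-0.69, 0.00519) pass as lower in fiPSC. Without SSC replicate 2, Cd68 turned to -0.0060 and Itga6 to 0.016. Without SSC replicate 3, Cd68 went from 0.46 to 0.94. The cause was not tested. The shallow SSC libraries limit low genes most, since 3 fragments on 1 kilobase are worth 1.69, 0.647 and 2.17 FPKM there.

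Medians of lists also moved by over 1.5 times. A pseudocount of 0.1 gave -1.41 for primed state, -0.03 for spermatogonial differentiation, -2.59 for retinoic acid, -6.58 for Leydig, -2.66 for endothelial, -8.88 for mast cell, -2.75 for mesenchymal and -1.48 for antigen presentation genes. Without a filter on low values the medians were -0.31 for primed state, -0.0053 for spermatogonial differentiation and -0.52 for antigen presentation genes. At a mean of at least 5 FPKM they were 0.28 for FGF and ERK, -0.15 for Wnt, -0.22 for spermatogonial differentiation, -3.69 for myoid, -0.99 for endothelial, 0.78 for epithelial, -0.10 for cholesterol and -0.42 for imprinted genes. Quantile normalization gave 0.065 for histone H3 lysine 9 methylation and -0.58 for cholesterol genes, and median-ratio scaling 0.26 for FGF and ERK, -0.44 for meiosis and 0.63 for Y chromosome genes. Without SSC replicate 2 the G1 median was 0.26, and without SSC replicate 3 that of imprinted genes was -0.43 and that of spermatogonial differentiation -1.20. For cholesterol genes it was -0.13 without fiPSC replicate 1, -0.02 without fiPSC replicate 3 and, with its sign turned, 0.02 without SSC replicate 2. For FGF and ERK genes it was 0.15 without fiPSC replicate 2, and 0.09 and 0.14 without SSC replicates 1 and 3.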

Other observations

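Outside the comparison, the Y-linked genes were near 0 in replicate 2 of the SSC-derived iPSC, with Ddx3y at 0.223 FPKM, Uty at 0.0731 FPKM, Eif2s3y at 0.0741 FPKM and Kdm5d listed at 0, and this library was used in the alternative fit with 9 libraries and in choosing the locus of each gene. Among all named genes, 20 were listed at 0 in every SSC library with at least 10 FPKM in each fiPSC library, and 17 the other way. The former include Zic5, a relative of Zic2, and Aire, a regulator known from the thymus. The latter include Shbg, the androgen carrier of Sertoli cells, and Col15a1, a basement membrane collagen. These 4 were chosen after their values were seen.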
